A study of Mus musculus with 10 samples.

Results

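The Kelch-repeat adaptors are the proteins named Klhl and Kbtbd, and their genes were taken as all rows of the expression table whose symbol begins with Klhl or Kbtbd followed by a number, with Klhl38 left out. This gave 39 genes of 13492 in the table. Of these, 36 had a mean of at least 0 log2 CPM (CPM being counts scaled to the size of the library) over all libraries and were tested, among 12223 genes tested in all. Klhl4, Klhl11 and Klhl36 lay below that minimum. RNA was measured in tibialis anterior, the shin muscle, which is mostly of fast fibres, from mice on a C57BL/6 background, aged 6 months and fasted for 3 h. One group of 5 libraries is labelled Lrtm1 KO and the other group of 5 Lrtm1 WT, which the series' design text describes as floxed controls; that text gives 4 per group. The libraries come from litters 108, 110 and 112, each of which holds both genotypes. The labels name no Cre driver, do not say which part of Lrtm1 was deleted, and do not state whether each library is from its own animal. The p-values therefore speak only of the spread between these libraries, which may be technical.

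A Kelch adaptor joins a BTB domain, which binds the scaffold cullin-3, to a propeller of Kelch repeats, which holds the protein to be ubiquitinated. Cullin-3 and the RING protein Rbx1 then carry ubiquitin to that target, and the attachment of Nedd8 switches the ligase on. In skeletal muscle several adaptors sit at the thin filament or Z-disc. Klhl40 and Klhl41 bind nebulin and protect thin filament proteins, and mutations of KLHL40, KLHL41 and KBTBD13 cause nemaline myopathy.

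Facts of the whole series that bear on these genes were few. Lrtm1 itself stood higher, by 1.35-fold, in libraries labelled knockout than in those labelled control (a log2 difference of 0.44, limma adjusted p = 0.0344). The targeted gene thus goes against the labels unless the deletion spares the transcript that was counted, and every direction below is one between libraries as labelled. The deposited values hold no difference between litters once genotype is fitted, and 3 further directions of variation are missing, so they had been adjusted before deposit. Library medians lay between 3.35 and 3.36 log2 CPM. Transcripts of fast fibres summed to between 90005 and 103218 CPM in controls and between 98759 and 102249 CPM in knockouts, over 8 markers, so fast muscle RNA was abundant in every library. None of the 8 passed the test, nor did any of 8 slow fibre markers with the removed terms counted, where 0.335% of all genes did. In the fit with litter and genotype alone 1 slow fibre marker was higher, against 5.15% of all genes. Log2 differences of the 8 slow fibre markers ran from -0.26 to 0.98 (median 0.06). The slow fibre markers summed to 94.7 to 104 CPM in controls and 103 to 116 CPM in knockouts. The 5 adipocyte markers summed to 77.3 to 92.6 CPM in controls and 67.0 to 77.4 CPM in knockouts, and all 5 had a log2 difference below 0 (median -0.89, lowest -2.21). With the removed terms counted 0 of the 5 passed as lower, against 0.0655% of all genes. In the fit with litter and genotype alone 3 of the 5 were lower, against 3.48% of all genes. The part of these markers in the results below was not tested. In bulk muscle, fewer cells of a type and less RNA per cell cannot be told apart.

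Promoter letters are shown first for 4 muscle-enriched adaptors. They share a stretch of letters that was not found in a window of any other Kelch adaptor. The stretch takes in some, not all, of the sites bound by MEF2, a factor of muscle genes. The motif searched was CTA, any 4 bases and TAG, which covers both strands at once because it is its own reverse complement, in the 250 bases before each RefSeq start (GRCm38.p6). The search was chosen after the levels were known. Of the 39 adaptors, 34 had at least 1 such window. Entries were not found for Kbtbd11, Klhl24, Klhl30, Klhl42 and Klhl8. The windows below run 5′ to 3′ on the strand of the gene from 250 to 31 bases before the start, and capitals mark this motif and, in Klhl41, also CAGCTG, an E-box of the kind bound by myogenic factors.
Klhl41, chr2:69669870-69670089, plus strand: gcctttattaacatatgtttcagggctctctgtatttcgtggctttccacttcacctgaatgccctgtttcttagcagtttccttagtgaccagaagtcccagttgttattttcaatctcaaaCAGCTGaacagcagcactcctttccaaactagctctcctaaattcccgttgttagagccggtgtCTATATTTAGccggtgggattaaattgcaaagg
Klhl33, chr14:50897514-50897733, minus strand: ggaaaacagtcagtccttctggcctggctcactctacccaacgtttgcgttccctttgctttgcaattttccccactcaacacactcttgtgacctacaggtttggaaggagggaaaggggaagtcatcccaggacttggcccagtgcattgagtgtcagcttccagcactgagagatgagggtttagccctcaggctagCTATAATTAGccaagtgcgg
Kbtbd13, chr9:65391683-65391902, minus strand: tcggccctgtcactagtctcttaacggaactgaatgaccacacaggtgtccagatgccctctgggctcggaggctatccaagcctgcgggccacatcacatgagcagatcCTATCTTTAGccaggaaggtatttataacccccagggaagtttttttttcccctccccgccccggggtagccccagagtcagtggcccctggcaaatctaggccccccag
Kbtbd12, chr6:88627460-88627679, minus strand: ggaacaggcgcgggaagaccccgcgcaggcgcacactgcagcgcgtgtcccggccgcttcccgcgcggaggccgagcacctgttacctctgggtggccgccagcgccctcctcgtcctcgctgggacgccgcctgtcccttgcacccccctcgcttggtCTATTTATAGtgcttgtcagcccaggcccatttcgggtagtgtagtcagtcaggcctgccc

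The match began 63 bases before the start in Klhl41, 50 in Klhl33, 140 in Kbtbd13 and 91 in Kbtbd12. The 4 free bases were A or T alone, as in sites bound by MEF2, in 3 of the genes, and Kbtbd13 had a C among them. It was present in 4 of 8 windows of muscle-enriched adaptors and in 0 of 38 windows of the others, against 3.2% of all 32851 windows in the table; a second window of Klhl33 had no match. CAGCTG was present in 3 of the 8, those of Klhl34, Klhl40 and Klhl41, and in 6 of the 38, against 13% of all windows. The median number of CG pairs was 4.5 in windows of the muscle-enriched adaptors and 15.5 in those of the others, with overlapping ranges of 2 to 27 and 0 to 42. The window of Kbtbd12 was the one with 27. That window lies inside the gene as GENCODE M21 annotates it (chromosome 6, 88545114 to 88637950, minus strand), so it precedes an internal start. No shown match of one motif overlapped the other. A letter match is a description of these windows and shows no binding. Klhl31 held neither motif, which says only that these letters are not in its window.

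By level, most of the muscle-enriched adaptors stood high in the family. Their list was drawn up as muscle-enriched, with earlier results of these data known, so high ranks follow in part from that choice. Levels of different genes were compared as log2 CPM per kb of the longest annotated transcript (GENCODE M21, GRCm38), which 38 of the 39 genes have; Klhl17 carries an identifier outside that release. Klhl41 was the highest by far, at 7.65 log2 CPM per kb, 3.66-fold above the next gene. Then came Klhl21 (5.77), Klhl31 (5.21), Klhl33 (5.13), Klhl30 (4.79), Klhl40 (4.49), Klhl24 (4.11) and Klhl7 (3.64), all on that scale. The lowest was Kbtbd11 at -2.78 log2 CPM per kb, so the level of Klhl41 was 1376-fold that of Kbtbd11.

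Among the 8 highest genes, 5 belonged to the list of 8 muscle-enriched adaptors (Klhl30, Klhl31, Klhl33, Klhl34, Klhl40, Klhl41, Kbtbd12 and Kbtbd13). The other 3 of that list, Kbtbd13 (2.84), Klhl34 (2.67) and Kbtbd12 (2.57 log2 CPM per kb), ranked 11, 14 and 15, level with widely expressed adaptors such as Klhl8 (2.84). The 8 listed genes together held 70.4% ± 0.39 (SD, n = 5) of the family's summed CPM per kb in controls and 68.2% ± 0.36 (SD, n = 5) in knockouts. Klhl41 alone held 41.6% ± 1.27 and 39.6% ± 0.92. By contrast, the 19 genes in the lower part of the order together held 3.79% ± 0.09 and 3.71% ± 0.05.

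With the longest transcript, the order held across libraries more often at the top than lower down, and it moved with the length used. Of 37 neighbouring pairs, 19 were separated by more than the SD of their gap over the 10 libraries, and 16 kept their order in all 10. Klhl31 and Klhl33 differed by 0.09 with an SD of 0.14, and Klhl31 was the higher in 8 of 10 libraries. Kbtbd13 and Klhl8 were not separated (gap 0.001, SD 0.11), nor were Klhl5 and Kbtbd3 (gap 0.001, SD 0.14). With the median transcript length, Klhl24 moved from rank 7 to 2 and Klhl22 from 10 to 5, while Klhl41 stayed first. Klhl21 then fell from 2 to 4 and Klhl31 from 3 to 6. With coding length instead, Klhl31 ranked 2, Klhl21 ranked 3 and Klhl24 ranked 5.

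**Figure D1:**
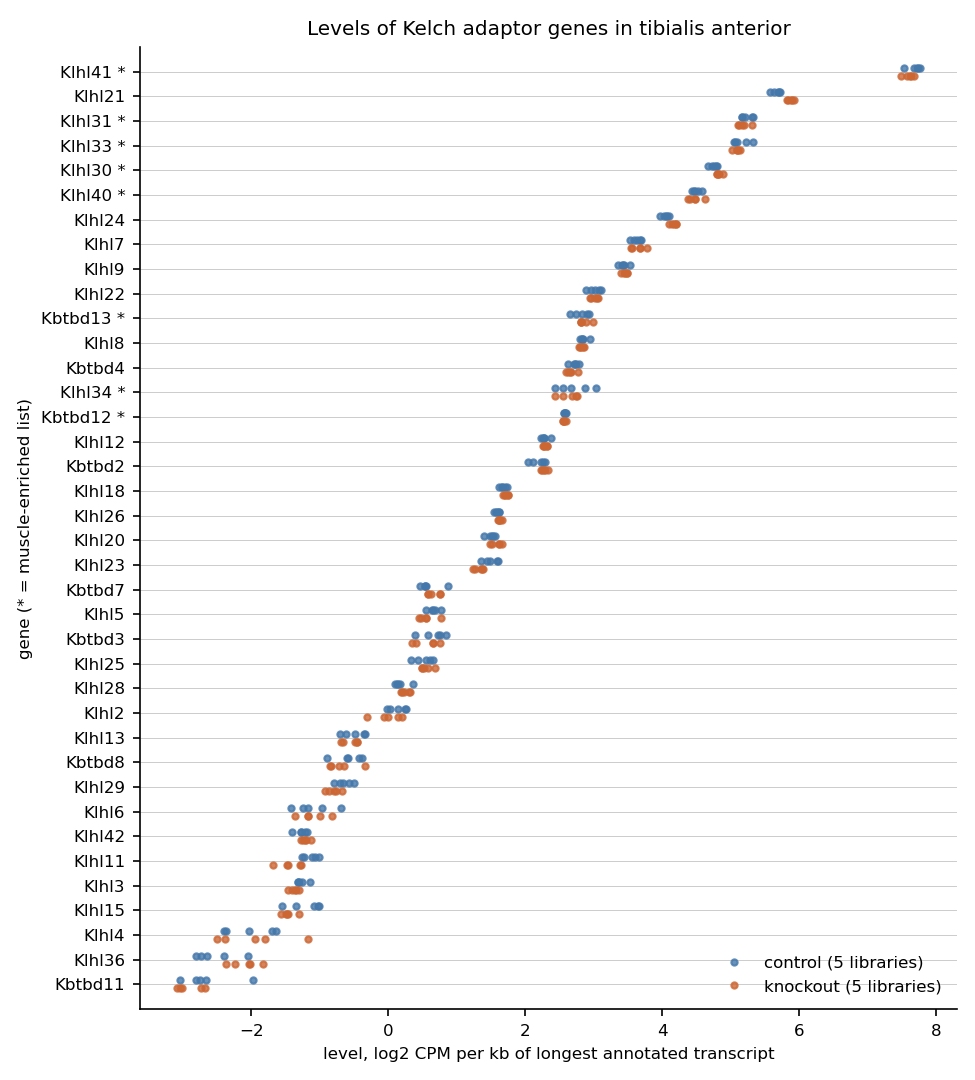
Level of each adaptor gene on the x axis, in log2 CPM per kb of its longest annotated transcript, with 1 point per library (blue, 5 controls; orange, 5 knockouts) and stars for the muscle-enriched list. Klhl41 stands alone at the top, at a mean of 7.65, and the groups lie on top of each other for most genes, Klhl21 being the clearest exception among the high ones.

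Related genes also differed widely in level. Klhl9 and Klhl13, paralogs that together with Klhl21 direct Aurora B in dividing cells, differed 15.7-fold per kb, and Klhl9 was the higher in all 10 libraries. Klhl2 stood 2.61-fold above Klhl3; both are adaptors for WNK kinases. Klhl41 and Klhl23 lie 137713 bases apart on chromosome 2 and differed 75.5-fold per kb.

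Between the groups, no adaptor passed the test. With the terms removed by the authors counted in the limma fit, 0 of 36 were higher and 0 were lower at a Benjamini-Hochberg adjusted p of 0.05 over all genes, where 0.27% of all genes tested were higher and 0.0655% lower. At an unadjusted p under 0.05 there were 2 of 36, Klhl21 and Klhl24, against 10.1% of all genes. In the fit with litter and genotype alone, which counts 6 residual degrees of freedom where 3 remain, 1 of 36 was higher, Klhl21, and 0 were lower, against 5.15% and 3.48% of all genes. The median log2 difference was -0.02 over the 36 members and -0.0041 over all genes tested. Differences ran from -0.26 to 0.21, and 21 of the 36 lay below 0, against 51.4% of all genes.

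**Figure D2:**
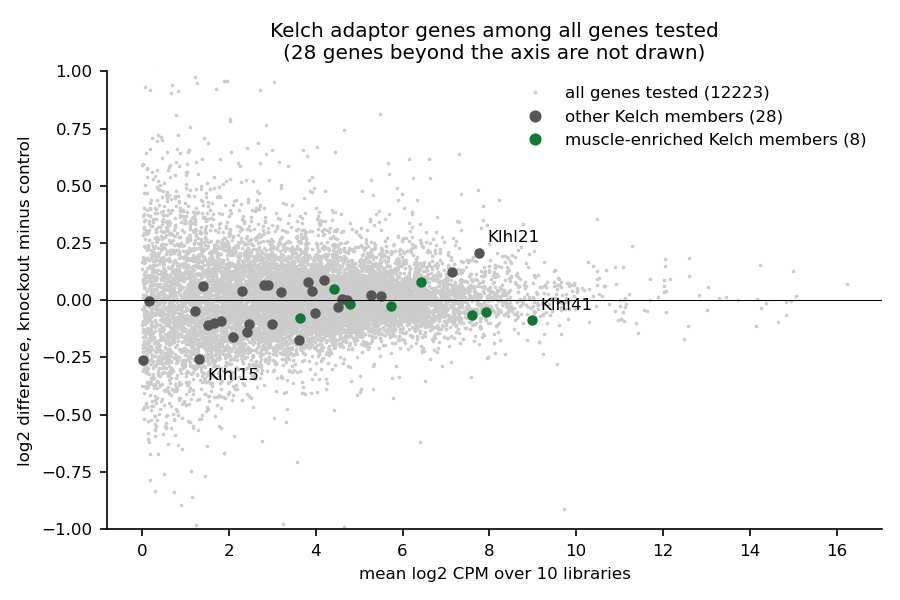
Log2 difference between knockout and control libraries (y axis) against mean log2 CPM (x axis) for the 12223 genes tested (grey), with 8 muscle-enriched (green) and 28 other (dark grey) adaptors; 28 genes lie beyond the axis. The adaptors lie within the cloud, and the muscle-enriched ones run from -0.09 to 0.08.

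Among the muscle-enriched adaptors, the thin filament partners Klhl41 and Klhl40 had overlapping groups. Klhl41 (ENSMUSG00000075307, chromosome 2, 69670120 to 69684230, plus strand) was measured at 9.02, 9.11, 8.88, 9.08 and 9.07 log2 CPM in control replicates 1, 3, 4, 5 and 6, and at 8.92, 8.98, 9.02, 8.97 and 8.83 in knockout replicates 1 to 5. The highest knockout lay among the controls and the lowest control among the knockouts. Its log2 difference was -0.09 (SE 0.07, 95% interval -0.24 to 0.07, adjusted p = 0.73), which is 0.94-fold with an interval from 0.845 to 1.05. Refits without 1 library kept litter and the removed terms and left 2 residual degrees of freedom. Because the removed terms then share variation with genotype, shifts in these refits are not the pull of that library alone. For Klhl41 the log2 difference was -0.25 in the refit without knockout replicate 3 and -0.0017 in that without knockout replicate 5. Klhl40 (chromosome 9, 121777607 to 121783818, plus strand) was at 5.83, 5.77, 5.72, 5.73 and 5.68 log2 CPM in the controls and at 5.63, 5.73, 5.72, 5.88 and 5.65 in the knockouts. Knockout replicates 4 and 1 were its highest and lowest library, so that the knockouts enclosed all 5 controls. The difference in Klhl40 was -0.02 (SE 0.07, interval -0.18 to 0.13, adjusted p = 0.941), and 20.6% of its 31-base words also occur in other genes, mostly on the opposite strand in Gm47108. The log2 ratio of Klhl41 to Klhl40 per kb was 3.19 ± 0.10 in controls and 3.13 ± 0.09 in knockouts (SD, n = 5).

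Klhl31, which controls turnover of the Z-disc protein filamin C, was the second muscle-enriched gene. Its position is chromosome 9, 77636500 to 77660127, plus strand. Control values were 8.03, 7.92, 8.02, 7.86 and 7.86 log2 CPM and knockout values 7.81, 7.87, 7.83, 8.02 and 7.90. Control replicates 1 and 4 and knockout replicate 4 were high, and the groups overlapped (difference -0.05, SE 0.07, interval -0.20 to 0.10, adjusted p = 0.846). Kbtbd13, mutations of which slow muscle relaxation, was at 4.47, 4.32, 4.50, 4.41 and 4.22 log2 CPM in the controls and at 4.39, 4.39, 4.39, 4.56 and 4.45 in the knockouts. Control replicate 6 was its lowest library and knockout replicate 4 its highest. Here the difference was 0.05 (SE 0.08, interval -0.13 to 0.23, adjusted p = 0.889).

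The other muscle-enriched adaptors have less well defined roles. Klhl33 values were 7.57, 7.69, 7.53, 7.52 and 7.80 log2 CPM in the controls and 7.56, 7.61, 7.57, 7.49 and 7.55 in the knockouts, with control replicates 6 and 3 the highest. Klhl30 values were 6.42, 6.36, 6.39, 6.43 and 6.30 in the controls and 6.44, 6.44, 6.46, 6.52 and 6.43 in the knockouts. In Klhl30 the lowest knockout lay just above the highest control, so the groups did not overlap, yet the difference of 0.08 (SE 0.06, interval -0.05 to 0.20) did not pass (adjusted p = 0.698). Kbtbd12 varied least, at 4.81, 4.81, 4.78, 4.80 and 4.79 log2 CPM in the controls and 4.76, 4.78, 4.79, 4.81 and 4.76 in the knockouts. Its SD was 0.01 in controls and 0.02 in knockouts, after an adjustment that leaves out part of the variation. Klhl34, a single-exon gene on the X chromosome, varied most, with 3.51, 3.82, 3.39, 3.62 and 3.99 log2 CPM in the controls and 3.64, 3.69, 3.70, 3.40 and 3.50 in the knockouts. For Klhl33, Kbtbd12 and Klhl34 the differences were -0.06, -0.02 and -0.08, with adjusted p of 0.814, 0.956 and 0.895.

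Read as a list, the 8 muscle-enriched adaptors had a median log2 difference of -0.04, with 6 below 0 and 2 above. The 95% interval lay within 0.25 of 0 in either direction for 7 of the 8, the exception being Klhl34, and for 9 of the 28 others tested, against 38.3% of all genes. Intervals narrow with level, and these SEs are lower bounds because variation had been removed. In the refit without control replicate 1, of the kind described for Klhl41, the list's median was 0.05.

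**Figure D3:**
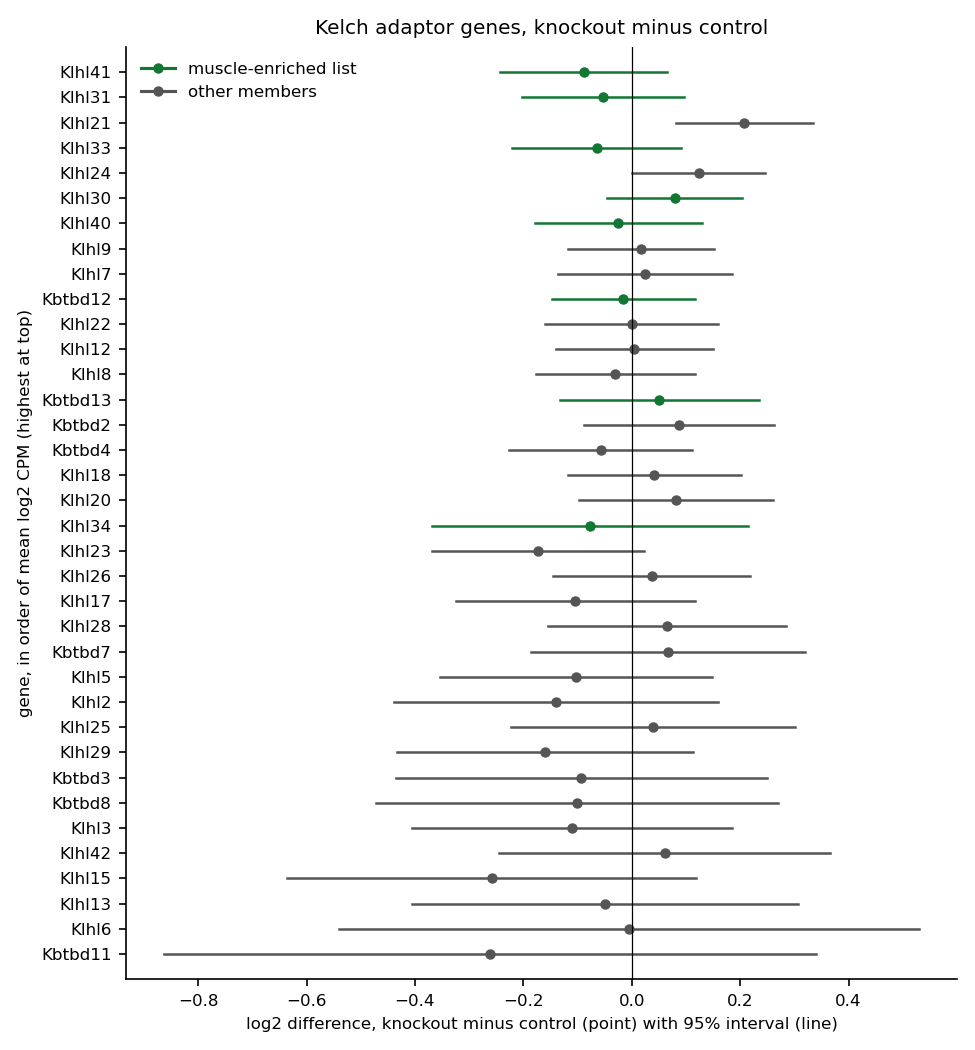
Log2 difference between knockout and control (points, x axis) with its 95% interval (lines) for the 36 adaptors tested, ordered by mean log2 CPM with the highest at the top (green, muscle-enriched list; grey, others). Intervals widen downwards, and those of Klhl21 and Klhl24 alone do not reach across 0.

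Klhl21 had the largest positive difference of the 36 adaptors tested. It directs Aurora B in mitosis, and in this muscle it was the second adaptor by level. The gene (ENSMUSG00000073700) spans chromosome 4, 152008803 to 152017680, plus strand. Control values were 7.63, 7.71, 7.57, 7.70 and 7.72 log2 CPM and knockout values 7.89, 7.90, 7.92, 7.84 and 7.82. Every knockout library lay above every control, and the gap was smallest in litter 112. In CPM this was 234.5 ± 6.7 against 203.2 ± 8.6 (SD, n = 5), and its share of the family's summed CPM per kb averaged 11.97% ± 0.32 against 10.25% ± 0.19. The log2 difference was 0.21 (SE 0.06, interval 0.08 to 0.33), or 1.15-fold, and was 0.26, 0.28 and 0.12 in litters 108, 110 and 112. The adjusted p was 0.246 with the removed terms counted and 0.0144 with litter and genotype alone, so the call rests on that choice. Refits without 1 library, of the kind described for Klhl41, gave differences between 0.11, without knockout replicate 3, and 0.25, without control replicate 3. Their adjusted p lay between 0.243 and 0.988. Of the 31-base words of Klhl21, 20.7% also occur in another gene, mostly Gm9768 on the opposite strand. Whether the counting used strand is not stated, so it is unknown whether the deposited values mix reads of such a pair.

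Klhl24, known for mutations that cause skin fragility and heart muscle disease, came next. Its controls were at 7.09, 7.11, 7.01, 7.13 and 7.06 log2 CPM and its knockouts at 7.18, 7.21, 7.24, 7.24 and 7.13. The groups did not overlap, though knockout replicate 5 lay next to control replicate 5. The log2 difference was 0.12 (SE 0.06, adjusted p = 0.492, and 0.0547 with litter and genotype alone), and it was 0.04 in the refit without knockout replicate 3. Klhl21, Klhl24 and Klhl30 were the 3 of 36 adaptors whose groups did not overlap, against 16.2% of all genes tested. Klhl38, left out of the family by the rule, had a log2 difference of 0.46 and passed (adjusted p = 0.0332). Of its 31-base words, 63.7% also occur in Gm15943 on the opposite strand, which stood at a mean of -0.79 log2 CPM. The part of such reads in the value of Klhl38 was not tested.

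**Figure D4:**
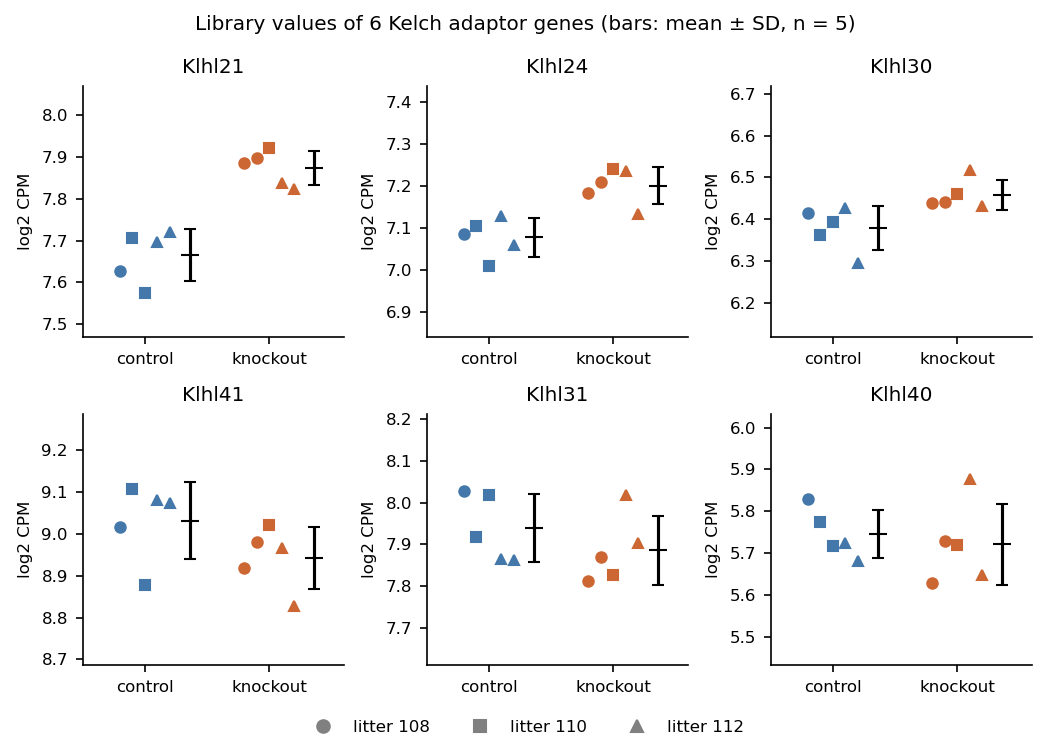
Log2 CPM (y axis) of each library for Klhl21, Klhl24, Klhl30, Klhl41, Klhl31 and Klhl40, with shapes for the litter and bars for the mean ± SD of 5 libraries; all panels span 0.6 log2 units. The groups separate in the upper row, most widely in Klhl21 (7.67 against 7.87), and overlap in the lower row.

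The other large differences belonged to scarcer genes with wide intervals. Klhl15, an adaptor for a regulatory subunit of phosphatase PP2A, was at 1.56, 1.30, 1.62, 1.63 and 1.09 log2 CPM in the controls and 1.16, 1.07, 1.14, 1.34 and 1.18 in the knockouts. Control replicates 3 and 6 lay among the knockouts (difference -0.26, SE 0.17, adjusted p = 0.671). Kbtbd11 was at 0.05, -0.01, 0.14, 0.83 and -0.24 in the controls and 0.12, -0.24, 0.07, -0.28 and -0.21 in the knockouts, with control replicate 5 far above the rest (difference -0.26, SE 0.27, adjusted p = 0.805). Klhl23, the neighbour of Klhl41, was at 3.70, 3.80, 3.56, 3.65 and 3.81 in the controls and 3.48, 3.59, 3.58, 3.56 and 3.44 in the knockouts. The highest 4 of its libraries were controls and the lowest 2 knockouts (difference -0.17, SE 0.09, adjusted p = 0.551). In the refit without knockout replicate 2 its difference was -0.31, and in that without control replicate 3 it was -0.08. Klhl29 was at 2.11, 2.16, 2.25, 2.02 and 2.32 in the controls and 2.06, 2.03, 1.95, 1.89 and 2.14 in the knockouts (difference -0.16, SE 0.12, adjusted p = 0.722), with partly overlapping groups.

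Adaptors whose targets lie in insulin or mTOR signalling bear on the question that the series' title raises. Kbtbd2 directs the p85α subunit of PI3-kinase (gene Pik3r1) to degradation and so sustains insulin signalling. It was at 4.19, 4.07, 4.24, 4.21 and 3.99 log2 CPM in the controls and 4.23, 4.18, 4.20, 4.28 and 4.25 in the knockouts. Control replicates 3 and 6 were low and the remaining controls lay among the knockouts (difference 0.09, SE 0.08, interval -0.09 to 0.26, adjusted p = 0.775). Klhl22, which removes the mTORC1 inhibitor Depdc5, was at 4.67, 4.78, 4.59, 4.73 and 4.81 in the controls and 4.72, 4.76, 4.78, 4.68 and 4.65 in the knockouts. Both group means of Klhl22 were 4.72, and the interval of the difference ran from -0.16 to 0.16 (adjusted p = 0.999).

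Klhl25 acts on the translation inhibitor 4E-BP1 and on ATP citrate lyase. Its controls were at 2.38, 2.20, 2.42, 2.31 and 2.10 log2 CPM and its knockouts at 2.28, 2.27, 2.26, 2.44 and 2.35 (difference 0.04, SE 0.12, adjusted p = 0.945). Klhl9, a gene of a distal myopathy, was at 5.51, 5.49, 5.47, 5.59 and 5.43 in the controls and 5.52, 5.50, 5.55, 5.54 and 5.47 in the knockouts (difference 0.02, SE 0.06, adjusted p = 0.953), and it shares 15.2% of its words with other genes. Klhl13 was at 1.26, 1.40, 1.03, 1.13 and 1.40 in the controls and 1.09, 1.28, 1.25, 1.29 and 1.06 in the knockouts (difference -0.05, SE 0.16, adjusted p = 0.948). In all 3 genes the groups overlapped across most of their range.

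The remaining 17 adaptors tested had differences from -0.14 in Klhl2 to 0.08 in Klhl20, and all had an adjusted p of at least 0.787. Klhl12, which ubiquitinates the COPII coat protein Sec31, differed by 0.005 (SE 0.07). Klhl7, a gene of inherited retinal degeneration, differed by 0.02 (SE 0.07), and Klhl20, which acts on PML and DAPK1, by 0.08 (SE 0.08). Klhl2 and Klhl3 had differences of -0.14 (SE 0.14) and -0.11 (SE 0.13). Kbtbd4, which acts on the CoREST complex, had a difference of -0.06 (SE 0.08), but 53% of its 31-base words occur in another gene, mostly in Ptpmt1 on the opposite strand, so its value is uncertain. Kbtbd7 shares 17.8% of its words with Kbtbd6, its neighbour and partner in degrading the Rac activator Tiam1, so reads of the pair could be split.

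For Klhl6, an adaptor of B cells, the difference was -0.0046 with an interval from -0.54 to 0.53. The 4 B cell markers of the list were not analysed here, and the 5 endothelial markers summed to 229 to 248 CPM in controls and 238 to 247 CPM in knockouts with none past the test. Their part in the level of Klhl6 was not tested. Of the genes below the minimum, Klhl11 had values from 0.0032 to 0.24 log2 CPM in the controls and from -0.42 to -0.01 in the knockouts, without overlap. Klhl36 ran from -1.68 to -0.92 and from -1.24 to -0.71, and Klhl4 from -0.56 to 0.20 and from -0.67 to 0.67. In the limma fit without a minimum, Klhl11 and Klhl36 had log2 differences of -0.30 and 0.43 and did not pass (adjusted p = 0.721 and 0.746), nor did Klhl4 (difference 0.07, adjusted p = 0.967).

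The ligase that the adaptors serve was measured alongside. Of 24 genes of the cullin-3 machinery (cullin-3, Rbx1, the Nedd8 pathway and the COP9 signalosome, which takes Nedd8 off again), 0 passed in either direction with the removed terms counted, against 0.335% of all genes, and 1 had an unadjusted p under 0.05, against 10.1%. With litter and genotype alone 1 was lower, where 3.48% of all genes were. This was Cops5, the catalytic subunit of the signalosome, at 6.31 ± 0.04 log2 CPM in controls and 6.14 ± 0.05 in knockouts (SD, n = 5; difference -0.16, SE 0.06, adjusted p = 0.356, and 0.027 with litter and genotype alone). Cul3 itself was at 7.93 ± 0.05 and 7.95 ± 0.06 log2 CPM, a difference of 0.02 with an interval from -0.11 to 0.15. The median of the 24 was -0.04, with 17 below 0, against 51.4% of all genes.

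Of 34 other BTB proteins, adaptors for the most part, 0 passed with the removed terms counted, where 3 had an unadjusted p under 0.05, against 10.1% of all genes. With litter and genotype alone 3 of the 34 were higher, against 5.15%. These were Kctd20 (difference 0.16, adjusted p = 0.368, and 0.0155 with litter and genotype alone), Bach1 (0.24, 0.264 and 0.0205) and Zbtb16 (0.33, 0.214 and 0.0342). Bach1 and Zbtb16 are transcription factors with a BTB domain rather than dedicated adaptors.

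Among 26 measured genes whose proteins are known partners or targets of Kelch adaptors, 0 passed with the removed terms counted, and 5 had an unadjusted p under 0.05, against 10.1% of all genes. With litter and genotype alone 3 of the 26 were higher and 1 was lower, against 5.15% and 3.48%. Pik3r1, the gene of the Kbtbd2 target p85α, was the lower one, at 4.94 ± 0.11 log2 CPM in controls and 4.65 ± 0.10 in knockouts (SD, n = 5; difference -0.29, SE 0.08, adjusted p = 0.253, and 0.0307 with litter and genotype alone). The adaptors act on proteins and only RNA was measured, so RNA levels of their targets do not report adaptor activity. Ulk1, an autophagy kinase and target of Klhl20, differed by 0.30 (adjusted p = 0.0886, and 0.0062 with litter and genotype alone). Wnk1, a target of Klhl2 and Klhl3, differed by 0.19 (adjusted p = 0.253 and 0.0078). Irs1, an adaptor of the insulin receptor and a reported target of Klhl9 and Klhl13, differed by 0.62 (adjusted p = 0.0839 and 0.0193). Of the sarcomere partners, Neb, Lmod3, Nrap and Flnc had differences of 0.04, 0.06, 0.07 and 0.005, with adjusted p from 0.895 to 0.991. Tmod4 and Des of the same list went the other way. Tmod4 differed by -0.12 (interval -0.27 to 0.02, adjusted p = 0.576) and Des by -0.02 (adjusted p = 0.937). The 95% intervals of these sarcomere partners all include 0. Those of the 4 genes named before them do not. They ran from -0.48 to -0.11 in Pik3r1, 0.16 to 0.43 in Ulk1, 0.07 to 0.31 in Wnk1 and 0.34 to 0.89 in Irs1.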

How the data were processed

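Per the labels' protocols, TRIzol was used for extraction and a directional oligo-dT kit for the libraries. The submitters' processing notes name fastp, kallisto and limma, with no version. Not given in the sources used here were build, annotation and use of strand in counting. Values as the authors deposited them are adjusted log2 CPM for 10 libraries (5 knockout, 5 control). Depth per library is unknown. With genotype in a fit, litters differed by at most 6.43e-14, and residuals spanned 3 of 6 dimensions, so litter and 3 further terms had been removed by the authors.

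Genes averaging 0 log2 CPM or more entered the test, made with limma 3.58.1 in R 4.3.3 (lmFit, eBayes with a trend; two-sided; Benjamini-Hochberg over 12223 genes). The terms were genotype, litter and the 3 removed terms, leaving 3 residual degrees of freedom; SEs remain lower bounds. A fit with litter and genotype alone stands beside it. No pseudocount was added. Steps were tested on simulated data. The members and lists were chosen with earlier results of these data known. Library values were printed for the muscle-enriched list, members past the threshold in either fit, the 5 largest differences, and 5 members tied to insulin or mTOR signalling; Klhl24 was added after its values were seen. From the other lists, up to 4 genes past the threshold in either fit were named. Cul3, Neb, Lmod3, Nrap, Flnc, Tmod4 and Des were added. Lengths came from GENCODE M21 (99.1% of genes tested). Shared words were counted over all annotated transcripts, on either strand.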

Additional observations from a re-analysis of the deposited data

Results flagged for a closer look

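In 2 of 72 groups of 5 libraries (36 adaptors in each genotype), 1 library lay far from the other 4 by Dixon's ratio of its gap to the whole range; chance gives such a result in about 1 of 20 groups. Both were control replicate 5. Klhl28 stood at 3.06 log2 CPM in it, against 2.79 to 2.86 in the other controls. Kbtbd7 stood at 3.05 in it, against 2.65 to 2.74. In the refit without that library, which keeps the removed terms, the log2 difference was 0.13 in Klhl28 and 0.17 in Kbtbd7. It had been 0.06 and 0.07, and neither passed.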

How the results depend on the processing

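With the removed terms counted, 41 genes passed over the whole table, against 1054 with litter and genotype alone, 517 without litter, 1 without the trend and 128 with the replicate number as a block in place of litter. The counts for higher adaptors (1, Klhl21), other BTB proteins and partners were 1, 3 and 4 with litter and genotype alone and 1, 2 and 3 without litter; 1 gene of the cullin-3 machinery was lower with litter and genotype alone, and 2 partners passed under the replicate block. The replicate numbers do not pair the libraries: same-numbered libraries correlated at -0.85, 0.45, 0.03 and -0.50, and number 4 spans litters 112 and 110. Each fit without 1 library kept litter and the removed terms, which left 2 residual degrees of freedom. The removed terms then share variation with genotype, so shifts in these fits are not the pull of that library alone. Leaving out 1 library gave 1 (without control replicate 6) to 54 genes over the table, 0 to 1 other BTB proteins, 0 to 1 partners, and 0 adaptors in either direction in each of the 10 cases. Medians then ran from -0.039 to 0.037 for all adaptors, -0.051 to 0.053 for the muscle-enriched ones and -0.047 to 0.037 for the rest. None of the single adaptors passed, and in 24 of them the sign of the log2 difference turned. It ran from -0.62 to 0.066 in Kbtbd11, from -0.028 to 0.0080 in Kbtbd12, from -0.021 to 0.20 in Kbtbd13, from -0.34 to 0.079 in Kbtbd3, from -0.10 to 0.050 in Kbtbd4, from -0.13 to 0.17 in Kbtbd7, from -0.25 to 0.22 in Kbtbd8 and from -0.046 to 0.046 in Klhl12. It further ran from -0.27 to 0.095 in Klhl13, from -0.42 to 0.0042 in Klhl15, from -0.18 to 0.067 in Klhl17, from -0.0033 to 0.15 in Klhl20, from -0.12 to 0.061 in Klhl22, from -0.043 to 0.20 in Klhl25, from -0.082 to 0.13 in Klhl28 and from -0.11 to 0.10 in Klhl31. Last, it ran from -0.20 to 0.013 in Klhl33, from -0.35 to 0.072 in Klhl34, from -0.092 to 0.12 in Klhl40, from -0.19 to 0.089 in Klhl5, from -0.22 to 0.52 in Klhl6, from -0.063 to 0.12 in Klhl7, from -0.079 to 0.013 in Klhl8 and from -0.048 to 0.054 in Klhl9. Among adaptors with library values in the report whose sign held, it ran from -0.26 to -0.03 in Klhl29, from 0.04 to 0.14 in Klhl30 and from 0.02 to 0.21 in Kbtbd2. Signs turned in genes near 0: with the length trend removed, Klhl22 was at 0.0064, Klhl12 at -0.019 and Klhl6 at 0.016, and under the replicate block Klhl22 was at 0.012 and Klhl12 at -0.0031. In these settings the cause was not tested. The planned RefSeq coding length was not run; GENCODE coding length, chosen after seeing the data, kept 5 muscle-enriched genes among the highest 8, as did the other length and group settings. Depth is unknown, so no counting error is given for low levels, and an undetected difference in the scarcer adaptors may lie anywhere within their wide intervals.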
